A study of Mus musculus with 9 samples.

Results

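Kidneys of AngII-treated mice that carried a floxed Tmem allele were compared with and without Cre, across 12507 expressed genes. AngII is angiotensin II, the peptide hormone that constricts vessels and retains salt. The Cre-negative group, titled AngII, had the genotype Tmemfl/fl, and the Cre-positive group, titled CDH16KO-AngII, had CDH16 Cre+/Tmemfl/fl. Each group had 3 RNA-seq libraries, so 6 of the 9 libraries of the series enter the comparison. The remaining 3 libraries, titled GRPR-AngII, had CDH16 Cre+/GRPRfl/fl. Their labels name the same Cre and no floxed Tmem allele, and their values are given beside the results. All mice of all groups received AngII, so nothing here measures the effect of the hormone. Both groups compared carry the floxed allele, and the Cre itself is a difference between them beside any deletion it makes. The Cre is named for Cdh16, a cadherin of kidney tubule epithelium, so a deletion would be limited to the cells in which that promoter is or was active. A gene was taken as expressed when its FPKM (fragments scaled to transcript length and to library size) was at least 1 in at least 3 of the 9 libraries, which 12507 of 32593 listed genes met. The sources used here do not give age, sex, dose or duration of treatment.

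Most kidney RNA comes from the proximal tubule, whose cells reabsorb the filtered load of salt, glucose, amino acids and small proteins and burn fatty acids in mitochondria and peroxisomes to pay for it. They also hold much of the organ's machinery for conjugating and exporting drugs, steroids and organic ions. STING, the adaptor named in the series title, sits in the endoplasmic reticulum and relays signals of DNA in the cytosol to TBK1 and IRF3, which switch on type I interferon and inflammatory genes.

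The libraries held 40731748 to 60449117 counts, and 11456 to 12276 genes in each had an FPKM of 1 or more. The mitochondrial genome supplied 16.1% to 26.4% of the counts. The root mean square difference between 2 libraries, over the log2 expression of all tested genes, was 0.493 to 0.612 within AngII, 0.560 to 0.667 within CDH16KO-AngII and 0.521 to 0.708 between these groups, so differences between groups overlapped those within them. A pair of annotated models of Nnt, the mitochondrial transhydrogenase that is known to vary between mouse strains, set libraries of the same group apart. Of the counts of both models, the second held 93.5%, 95.8% and 0% in AngII libraries 1, 2 and 3 and 34.1%, 44.0% and 0% in the CDH16KO-AngII libraries. In GRPR-AngII it held 0%, 19.8% and 0%. The first model stood at 6.74, 3.85 and 68.3 CPM in AngII and at 44.7 to 74.8 CPM in the Cre-positive libraries. AngII libraries 1 and 2 thus stood apart from all libraries of both other groups. The part of strain background in the results below was not tested. Proximal tubule, ascending limb, collecting duct, podocyte and endothelial markers were all present, and no adrenal cortex marker passed the filter.

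The gene to be deleted is taken here as Sting1 (ENSMUSG00000024349), the gene of STING, whose older symbol Tmem173 begins with the Tmem of the labels. Sting1 gave 259, 94 and 234 counts in AngII and 113, 127 and 96 counts in CDH16KO-AngII, or 4.62, 1.77 and 5.33 against 2.15, 2.24 and 2.04 CPM (counts scaled to the same library total). The GRPR-AngII libraries stood at 2.90, 2.90 and 2.68 CPM. AngII library 2 lay below every CDH16KO-AngII library, so the groups compared overlapped (exact two-sided permutation p = 0.4, where 3 against 3 libraries cannot go below 0.1). Sting1 did not reach the expression filter. At a filter of FPKM 0.1, edgeR gave it a log2 fold change of −0.86 (SE 0.36, adjusted p = 0.604), and −1.20 without AngII library 2 (edgeR adjusted p = 0.261). These whole-kidney values neither show nor exclude a deletion in tubule cells, since other cell types of the kidney express the gene and the sources used here do not name the floxed exons. Cdh16 stood at 763, 759.7 and 617 CPM in AngII and at 598, 696 and 682 CPM in CDH16KO-AngII, with overlapping groups. Acsl4, the ligase of polyunsaturated fatty acids also named in the series title, stood at 20.1, 19.8 and 19.5 CPM against 15.4, 20.8 and 13.2 CPM, where CDH16KO-AngII library 2 lay above all AngII libraries (edgeR adjusted p = 0.678).

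Few genes passed the test between the groups. In edgeR's quasi-likelihood fit, with Benjamini-Hochberg adjusted p under 0.05 as the threshold for a call, 21 of 12507 genes were called, or 0.168%. Of these, 13 were higher with Cre (0.104%) and 8 lower (0.064%). The lower genes included peroxisomal and mitochondrial lipid enzymes, a pantetheinase and a glycolipid transferase. The higher genes included a collagen VI chain, histone H2B genes and mostly pseudogenes or predicted genes. Predicted, clone or pseudogene names made up 9 of the 13 higher genes (69.2%) and 1 of the 8 lower genes (12.5%), against 14.2% of all tested genes. The median log2 fold change of all tested genes was 0.01, with quartiles of −0.17 and 0.19. At an unadjusted p under 0.05 there were 1057 genes (8.45%), 587 higher and 470 lower. The 3 libraries of one group lay entirely above or below those of the other for 1520 genes (12.2%). A log2 fold change of at least 1 was reached by 150 genes (1.2%), of which 12 were called and 85 had predicted names, and one of −1 or less by 124 genes (0.991%), of which 6 were called and 41 had predicted names. DESeq2 called 103 higher and 107 lower, and edgeR called 0 genes when AngII library 1 was left out. One called gene that was lower is not reported here.

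Among the genes that fell, Vnn1 (ENSMUSG00000037440, chr10:23894688-23905343 of GRCm38), the pantetheinase that releases pantothenate and cysteamine from pantetheine, was the most abundant described here. It stood at 102, 84.8 and 115 CPM in AngII and at 43.4, 34.4 and 25.2 CPM in CDH16KO-AngII. The GRPR-AngII libraries, at 89.1, 100.2 and 119 CPM, lay with the AngII group. All 3 CDH16KO-AngII libraries were below all 6 others, and the fall was 2.93-fold (log2 fold change −1.55, SE 0.21, edgeR adjusted p = 0.0199). Acox2 (chr14:8225511-8259353), the peroxisomal acyl-CoA oxidase for branched fatty acids and bile acid side chains, stood at 93.3, 76.7 and 61.4 CPM in AngII against 38.6, 29.4 and 25.2 CPM. Hacl1 (chr14:31598730-31641257), the lyase of peroxisomal alpha-oxidation, stood at 41.8, 39.9 and 26.6 CPM against 13.6, 14.3 and 11.7 CPM. In neither gene did the groups overlap, and the log2 fold changes were −1.31 and −1.45 (SE 0.20 and 0.21, edgeR adjusted p = 0.0332 and 0.0297). Hacl1 lies opposite Btd, the biotinidase gene, which averaged 82.5 CPM in AngII and 73.1 CPM in CDH16KO-AngII, and the sources used here do not say whether the counting used strand.

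Acot2 (chr12:83987861-83993873), a mitochondrial thioesterase that frees fatty acids from coenzyme A, was the steadiest of the lower genes between libraries. It stood at 34.5, 32.2 and 35.6 CPM in AngII, at 20.997, 17.9 and 17.3 CPM in CDH16KO-AngII and at 32.3, 38.8 and 32.7 CPM in GRPR-AngII (log2 fold change −0.87, SE 0.13, edgeR adjusted p = 0.0392). Acot1, its cytosolic neighbour in the same gene family, shares 58.0% of the longest Acot2 transcript at 95% identity or more, so reads could be split between the genes. Acot1 stood at 67.3, 57.1 and 49.4 CPM against 21.2, 13.6 and 6.72 CPM and was not called (edgeR adjusted p = 0.132). The sum of both genes was 92.0 ± 8.796 CPM in AngII and 32.5 ± 9.14 CPM in CDH16KO-AngII (SD, n = 3 per group). Cyp4a12b, a fatty acid hydroxylase, shares its whole longest transcript with Cyp4a12a, so the pair was also summed. Cyp4a12b stood at 26.8, 22.8 and 18.1 CPM in AngII and at 1.79, 3.602 and 3.09 CPM in CDH16KO-AngII (log2 fold change −2.996, SE 0.47, edgeR adjusted p = 0.046). The summed pair stood at 84.6, 105.5 and 51.2 CPM against 8.99, 20.9 and 17.2 CPM, without overlap, so the difference was also present where the division of reads between the copies does not enter. A4galt, the Golgi transferase that adds the terminal galactose of the glycolipid Gb3, stood at 18.2, 14.2 and 15.3 CPM against 7.43, 8.07 and 8.45 CPM (log2 fold change −0.99, SE 0.15, edgeR adjusted p = 0.0392). The RNA 1810034E14Rik (chr13:64248700-64271852) stood at 12.3, 12.6 and 9.88 CPM against 2.63, 3.30 and 4.21 CPM (log2 fold change −1.78, SE 0.22, edgeR adjusted p = 0.0182). It lies opposite the phosphatase gene Cdc14b, whose 16.9, 4.04 and 13.03 CPM in AngII and 22.6, 19.2 and 3.47 CPM in CDH16KO-AngII overlapped between the groups.

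The calls among the lower genes depended on single libraries. When AngII library 1 was left out, all 7 described genes missed the threshold, with edgeR adjusted p of 0.131 for Vnn1 and 0.102 for 1810034E14Rik. Without AngII library 2, Vnn1 also missed it (0.0756), as it did without AngII library 3 (0.074) or CDH16KO-AngII library 3 (0.0687). A4galt missed it in all 9 fits that left out 1 library, with an edgeR adjusted p between 0.0553 and 0.216. Acox2 missed it in all such fits but those without AngII library 3 or CDH16KO-AngII library 1, and Acot2 in all but those without CDH16KO-AngII library 1 or GRPR-AngII library 2. Cyp4a12b missed it in all but those without GRPR-AngII library 2 or 3. Hacl1 missed it without AngII library 1 or 2, CDH16KO-AngII library 1 or 3 or GRPR-AngII library 1, and 1810034E14Rik without AngII library 1 or 2. The fold changes moved less than these calls did. The log2 fold change of Vnn1 lay between −1.76 and −1.37, that of Acox2 between −1.50 and −1.15, that of Hacl1 between −1.63 and −1.34, that of Acot2 between −0.96 and −0.81 and that of Cyp4a12b between −3.21 and −2.75. The highest edgeR adjusted p in these fits was 0.184 for Acox2 and Hacl1 and 0.199 for Acot2 and Cyp4a12b. In bulk tissue, fewer cells of a type and less RNA per cell cannot be told apart.

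**Figure D1:**
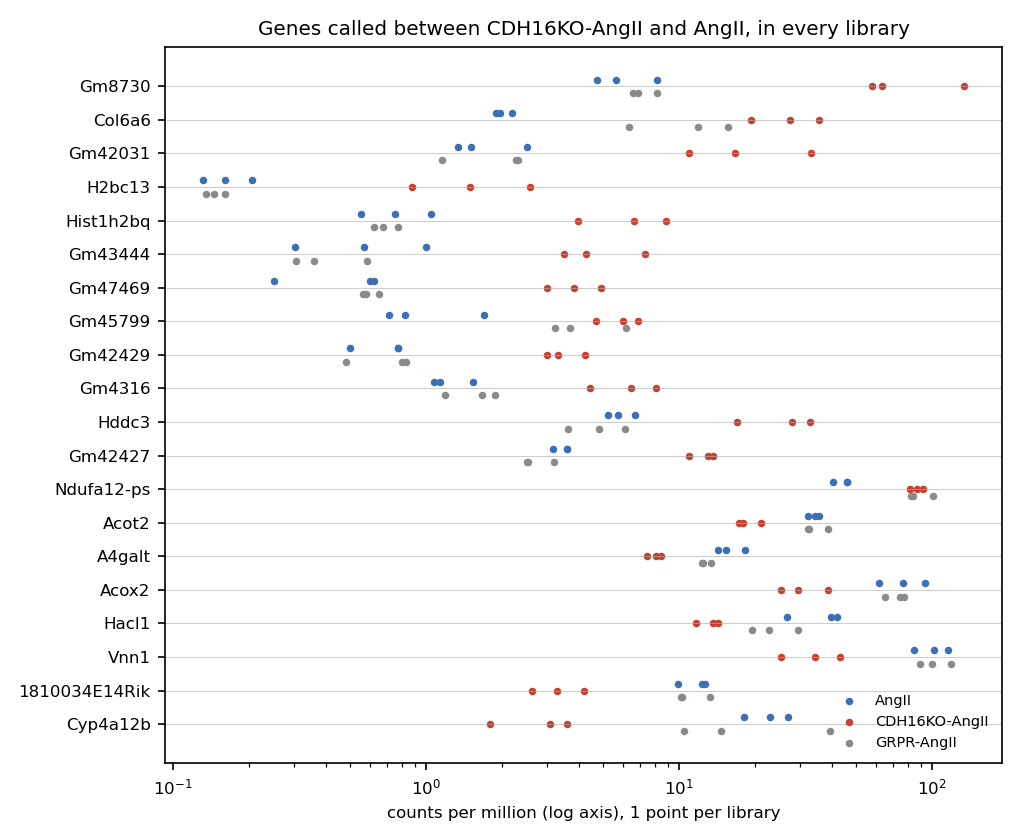
CPM on a log axis for 20 called genes, 1 row per gene and 1 point per library, coloured by group. The 3 CDH16KO-AngII points lie apart from the 3 AngII points in each row, and the GRPR-AngII points lie near AngII for most genes but not for Col6a6, Ndufa12-ps and Gm45799.

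Of the genes that rose, Col6a6 (ENSMUSG00000043719, chr9:105687809-105828160), a chain that can take the third place in the collagen VI trimer of the interstitial matrix, had the lowest adjusted p together with the pseudogene Gm8730. It stood at 2.19, 1.96 and 1.89 CPM in AngII and at 19.2, 27.3 and 35.8 CPM in CDH16KO-AngII (log2 fold change 3.77, SE 0.35, edgeR adjusted p = 0.0033). The GRPR-AngII libraries stood between, at 6.32, 15.6 and 11.9 CPM, above all AngII libraries and below all CDH16KO-AngII libraries. Its edgeR adjusted p was 0.0565 without AngII library 1, and the other 8 fits that left out a library kept the call. The other collagen VI chains, given here because they assemble with it, were not called. Col6a1 stood at 17.6, 8.44 and 18.3 CPM against 13.03, 12.5 and 25.6 CPM, and Col6a3 at 8.45, 6.45 and 10.2 CPM against 7.93, 12.025 and 17.7 CPM, with overlapping groups in both. Col6a6 overlaps an opposite-strand gene of the GENCODE M21 annotation that is not analysed here.

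Hddc3 (ENSMUSG00000030532, chr7:80343104-80350547), which codes for a metal-dependent phosphohydrolase of the family that hydrolyses guanosine tetraphosphate in bacteria, rose from 5.72, 6.66 and 5.22 CPM to 16.9, 27.8 and 33.0 CPM. The GRPR-AngII libraries were at 4.81, 6.11 and 3.64 CPM (log2 fold change 2.14 against AngII, SE 0.27, edgeR adjusted p = 0.0182). The genes on its opposite strand did not move with it. Unc45a averaged 38.4 CPM in AngII and 38.7 CPM in CDH16KO-AngII, and Man2a2 averaged 31.9 CPM and 33.7 CPM. Without AngII library 1, 2 or 3 or CDH16KO-AngII library 3 Hddc3 missed the threshold, with a highest edgeR adjusted p of 0.132 and log2 fold changes over all 9 such fits of 1.93 to 2.37.

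A pair of histone H2B genes 0.09 Mb apart on chromosome 13 rose from a low level. Hist1h2bq stood at 0.552, 0.752 and 1.05 CPM in AngII and at 3.98, 8.83 and 6.62 CPM in CDH16KO-AngII (log2 fold change 3.05, SE 0.37, edgeR adjusted p = 0.0169). H2bc13 stood at 0.160, 0.132 and 0.205 CPM against 0.876, 2.56 and 1.49 CPM (log2 fold change 3.30, SE 0.48, edgeR adjusted p = 0.0281). The GRPR-AngII libraries stood at 0.624 to 0.772 CPM for Hist1h2bq and at 0.135 to 0.161 CPM for H2bc13, within the AngII range for both. H2B genes are near-identical in sequence, so reads could be assigned to the wrong copy. Hist1h2br, which shares the whole longest Hist1h2bq transcript, stood at 0.374, 0.564 and 0.911 CPM against 2.13, 7.13 and 4.62 CPM, and the sum of the pair was 1.40 ± 0.521 CPM in AngII and 11.1 ± 4.92 CPM in CDH16KO-AngII (SD, n = 3 per group). The abundant H2bc4 went the other way, at 200.2, 181 and 185 CPM against 144, 147 and 136 CPM, without being called, and was chosen after its values were seen. H2bc13 shares its whole longest transcript with H2bc4. Their sum was 189 ± 10.2 CPM in AngII and 144 ± 6.14 CPM in CDH16KO-AngII (SD, n = 3 per group). The H2bc13 means of 0.166 and 1.64 CPM are small beside these SDs, so the sum cannot show whether H2bc13 rose. Whether reads of H2bc4 were counted for H2bc13 was not tested. Hist1h2bq had an edgeR adjusted p of 0.102 without AngII library 1, and H2bc13 reached 0.199 at most when a library was left out. Both also missed the threshold without AngII library 2 or CDH16KO-AngII library 3, and H2bc13 without AngII library 3 or GRPR-AngII library 1 or 3.

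Processed pseudogenes, copies of an mRNA written back into the genome, made up further rises, and the mean levels of their parent genes were lower. Gm8730 (chr8:102864845-102865798, minus strand) is a copy of Rplp0, the stalk protein of the large ribosomal subunit. Ndufa12-ps (chr5:130188395-130188796, plus strand, inside the same-strand gene Rabgef1) is a copy of Ndufa12, a subunit of respiratory complex I. In alignments of the parents' coding sequence with the pseudogenes in GENCODE M21, 12 of 951 bases differed between Rplp0 and Gm8730 and 2 of 399 between Ndufa12 and Ndufa12-ps. The sequences below show why the division of reads is delicate. Each is a 90-base stretch, 5′ to 3′ on its gene's own strand (GRCm38), and the capital marks the 1 base in it that differs between the parent and its copy.
Rplp0: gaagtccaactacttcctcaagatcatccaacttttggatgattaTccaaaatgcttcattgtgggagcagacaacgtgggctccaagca
Gm8730: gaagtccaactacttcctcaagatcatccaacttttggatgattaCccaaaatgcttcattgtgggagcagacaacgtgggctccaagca
Ndufa12: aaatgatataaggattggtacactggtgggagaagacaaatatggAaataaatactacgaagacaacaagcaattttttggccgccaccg
Ndufa12-ps: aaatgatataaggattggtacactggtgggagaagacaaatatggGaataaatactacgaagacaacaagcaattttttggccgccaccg

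Gm8730 stood at 5.65, 8.14 and 4.71 CPM in AngII, at 133, 63.2 and 57.6 CPM in CDH16KO-AngII and at 8.19, 6.90 and 6.59 CPM in GRPR-AngII (log2 fold change 3.78, SE 0.34, edgeR adjusted p = 0.0033). Rplp0 stood at 489, 544 and 470.1 CPM in AngII and at 309.7, 497 and 331 CPM in CDH16KO-AngII, with overlap, and was not called (log2 fold change −0.40, edgeR adjusted p = 0.615). Parent and copy summed to 507 ± 40.1 CPM in AngII and 464 ± 87.4 CPM in CDH16KO-AngII (SD, n = 3 per group), with overlapping libraries. The rise of the copy is thus accompanied by no rise of the sum. Ndufa12-ps stood at 40.5, 45.8 and 46.0 CPM in AngII and at 81.4, 91.6 and 86.9 CPM in CDH16KO-AngII (log2 fold change 0.97, SE 0.13, edgeR adjusted p = 0.0197). Its GRPR-AngII libraries, at 82.5, 83.9 and 101 CPM, lay with CDH16KO-AngII and above all AngII libraries. Ndufa12 stood at 151, 139.7 and 122 CPM against 85.0, 83.0 and 79.5 CPM, apart but not called (log2 fold change −0.74, edgeR adjusted p = 0.13). The pair summed to 182 ± 12.4 CPM in AngII, 169 ± 4.66 CPM in CDH16KO-AngII and 186 ± 17.9 CPM in GRPR-AngII (SD, n = 3 per group). How reads that match parent and copy equally well were assigned cannot be read from gene counts. Gm8730 had an edgeR adjusted p of 0.0565 without AngII library 1, and Ndufa12-ps reached 0.158 at most, missing the threshold also without AngII library 2 or 3 or CDH16KO-AngII library 3.

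**Figure D2:**
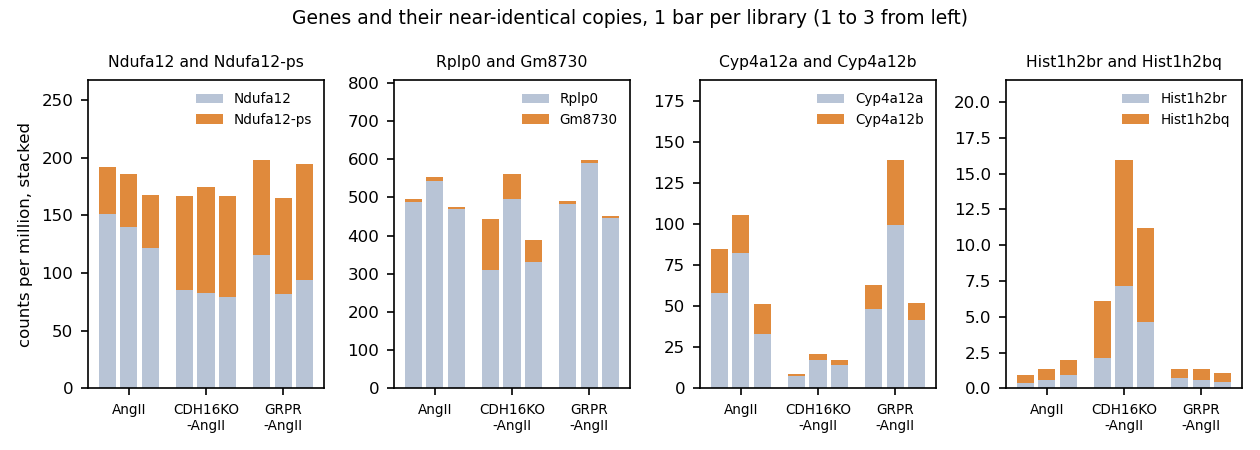
CPM per library, stacked for 4 pairs of genes with near-identical sequence: Ndufa12 with Ndufa12-ps, Rplp0 with Gm8730, Cyp4a12a with Cyp4a12b, and Hist1h2br with Hist1h2bq. The stacks of the first 2 pairs keep a similar height in AngII and CDH16KO-AngII while their division shifts, and the stacks of the last 2 pairs differ in height.

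The other called genes with predicted names repeated this mix of clear separation and shared sequence. Gm42427 and Gm42429 lie 0.003 Mb apart on chromosome 5. Gm42427 stood at 3.62, 3.61 and 3.17 CPM in AngII, at 10.96, 13.05 and 13.6 CPM in CDH16KO-AngII and at 2.53, 2.51 and 3.19 CPM in GRPR-AngII (log2 fold change 1.85, SE 0.20, edgeR adjusted p = 0.0102). Gm42429 followed with 0.499, 0.771 and 0.774 CPM against 3.32, 3.002 and 4.26 CPM. Gm42429 shares its whole longest transcript with Gm42427 and 67.6% of it with Gm4316, another called gene. Gm4316 shares 50.1% of its longest transcript with Gm42427. Reads could be divided among these genes, so their calls may not be separate. Gm42031 shares 94.1% of its longest transcript with Gm43305 and 56.7% with Cnbd2, a gene with a cyclic nucleotide-binding domain. It stood at 1.497, 1.34 and 2.51 CPM against 10.96, 16.7 and 33.3 CPM. Gm43305 stood at 170 CPM, 67.4 CPM and 186 CPM against 11.1 CPM, 144.6 CPM and 389 CPM, and its sum with Gm42031 overlapped between groups (143 ± 65.03 CPM in AngII and 202 ± 203 CPM in CDH16KO-AngII, SD, n = 3 per group). Cnbd2 stood at 17.5, 21.7 and 30.7 CPM against 82.8, 67.5 and 110.1 CPM, without overlap and without a call (log2 fold change 1.90, edgeR adjusted p = 0.0957). Gm43444 shares 97.9% with Glud1, the glutamate dehydrogenase, which averaged 470 CPM in AngII and 370 CPM in CDH16KO-AngII against 0.623 and 5.03 CPM for the copy. Gm45799 shares 90.4% with Dnhd1, a dynein-related gene, and its GRPR-AngII libraries (3.70, 3.22 and 6.19 CPM) lay above AngII (0.713, 0.827 and 1.69 CPM) as its CDH16KO-AngII libraries did (6.02, 4.70 and 6.89 CPM). Gm4316 and Gm47469 were called at log2 fold changes of 2.34 and 2.98. Counting all 21 called genes, 11 shared sequence with another gene, 7 overlapped another listed gene and 15 met at least one of these. None of these 7 genes with predicted names passed without AngII library 1, where the edgeR adjusted p was 0.073 for Gm42427 and 0.253 for Gm45799, and none passed without AngII library 2 or CDH16KO-AngII library 3. Gm42429 and Gm4316 also missed the threshold without AngII library 3, Gm42429 without GRPR-AngII library 1, Gm45799 without CDH16KO-AngII library 1 or any GRPR-AngII library, and Gm43444 in all 9 fits that left out a library.

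The called genes differed in where the Cre-positive GRPR-AngII libraries lay. That contrast reuses the libraries of this comparison, so its values are set beside those above and support nothing on their own. Between CDH16KO-AngII and GRPR-AngII 18 genes were called (0.144%), 11 higher in CDH16KO-AngII (0.088%) and 7 lower (0.056%). Against GRPR-AngII, CDH16KO-AngII differed by log2 fold changes of −1.58 for Vnn1, −0.89 for Acot2, −1.73 for 1810034E14Rik, 2.41 for Hddc3, 3.22 for Hist1h2bq and 3.55 for Gm8730, all called (edgeR adjusted p from 0.00444 to 0.0358). The values were −1.22 for Acox2, −2.93 for Cyp4a12b, −0.67 for A4galt and −0.86 for Hacl1, which were not called (edgeR adjusted p of 0.051, 0.0522, 0.172 and 0.229). For Col6a6 the value was 1.28 (edgeR adjusted p = 0.229), and for Ndufa12-ps −0.04 (edgeR adjusted p = 0.998). In GRPR-AngII against AngII, edgeR called 0 genes, with 0.107 the smallest adjusted p, held by Col6a6 (log2 fold change 2.48) and Ndufa12-ps (1.01).

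Among genes that just missed the threshold, several are enzymes or secreted proteins of lipid and drug metabolism. Cyp2d12, a kidney and liver cytochrome P450, stood at 147, 128 and 168 CPM in AngII and at 64.4, 63.0 and 59.6 CPM in CDH16KO-AngII. Gjb1, the gap junction protein connexin 32, stood at 58.8, 47.2 and 45.3 CPM against 28.3, 26.0 and 20.9 CPM. The edgeR adjusted p of 0.05 of both genes lay just above the threshold (log2 fold changes −1.25 and −1.01). Sugct, which transfers coenzyme A to glutarate, stood at 106, 133 and 116 CPM against 47.2, 67.9 and 35.0 CPM (edgeR adjusted p = 0.0651). Nudt7, a peroxisomal coenzyme A diphosphatase, stood at 17.4, 16.7 and 19.4 CPM against 6.802, 9.89 and 9.79 CPM (edgeR adjusted p = 0.0781). Angptl4, a secreted inhibitor of lipoprotein lipase, stood at 93.2, 44.8 and 100.1 CPM against 30.2, 13.6 and 17.2 CPM, and Azgp1, a secreted lipid-binding protein, at 114, 111 and 69.9 CPM against 29.9, 33.1 and 28.0 CPM (edgeR adjusted p = 0.107 for both). Lack of overlap between groups was a condition for naming the genes of this paragraph and the next, so their separation is not a result. Fbp2, a fructose bisphosphatase, and Pdxk, the pyridoxal kinase, had log2 fold changes of −0.84 and −0.90 (edgeR adjusted p of 0.113 and 0.111).

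On the higher side the nearest misses were of mixed function. Tsen54, a subunit of the tRNA splicing endonuclease, stood at 21.3, 20.5 and 23.4 CPM in AngII and at 51.7, 37.9 and 65.4 CPM in CDH16KO-AngII (log2 fold change 1.25, edgeR adjusted p = 0.0564). Apoc3, an apolipoprotein that restrains lipolysis, stood at 8.68, 9.82 and 7.11 CPM against 26.4, 17.0 and 19.5 CPM (log2 fold change 1.30, edgeR adjusted p = 0.0567). Its GRPR-AngII libraries, at 18.5, 25.1 and 27.4 CPM, also lay above all AngII libraries. Sfi1, a centrosomal protein, stood at 40.7, 40.4 and 55.0 CPM against 103, 72.3 and 117 CPM. Fgfr4, a receptor for fibroblast growth factors, stood at 44.0, 42.5 and 46.5 CPM against 67.3, 75.1 and 81.2 CPM (log2 fold change 0.75, edgeR adjusted p = 0.11). Riok3, a kinase of ribosome maturation, stood at 54.1, 67.1 and 71.8 CPM against 103, 111 and 103 CPM, with the CDH16KO-AngII libraries close together (log2 fold change 0.72, edgeR adjusted p = 0.11). Pvalb, the calcium buffer of the early distal convoluted tubule, stood at 9.04, 16.6 and 14.3 CPM against 66.3, 40.7 and 23.3 CPM (edgeR adjusted p = 0.137). All 6 were named under the same condition that the groups did not overlap.

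Gene groups were described by their counts and medians, set against the 48.1% of all genes with a negative log2 fold change, the 3.76% lower and 4.69% higher at an unadjusted p under 0.05, and the 5.5% and 6.65% whose CDH16KO-AngII libraries lay entirely below or above AngII. The group of fatty acid oxidation enzymes, given only as a yardstick, had a median log2 fold change of −0.57, with 27 of 37 genes lower at an unadjusted p under 0.05. Beyond it, genes of detoxification by glutathione mostly had negative values. Of 43 tested genes of glutathione metabolism and targets of NRF2, a transcription factor activated by oxidants and electrophiles, 38 had negative values (median −0.34). At an unadjusted p under 0.05, 13 were lower and 0 were higher. For 12 genes the CDH16KO-AngII libraries lay entirely below AngII. None was called. Gsta1, a glutathione transferase, stood at 13.95, 16.4 and 13.2 CPM against 3.73, 6.0035 and 2.68 CPM (log2 fold change −1.81, edgeR adjusted p = 0.0857). Gsta2, with which Gsta1 shares sequence, stood at 415, 356 and 366 CPM against 228, 226 and 127 CPM. Nqo1, a quinone reductase and a standard NRF2 target, stood at 58.2, 76.9 and 52.8 CPM against 39.0, 30.5 and 22.9 CPM (log2 fold change −1.02, edgeR adjusted p = 0.116). Mgst1, a membrane-bound transferase, stood at 86.6, 70.6 and 70.2 CPM against 54.2, 53.0 and 39.3 CPM. The mean log2 CPM of the group was 7.05, 7.19 and 6.96 in AngII and 6.71, 6.85 and 6.49 in CDH16KO-AngII, all below AngII, while GRPR-AngII stood at 7.02, 7.01 and 6.99.

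Enzymes that oxidise and conjugate drugs and steroids leaned the same way, with 1 library apart from its group. Of 52 tested, 40 had negative values and 9 were lower at an unadjusted p under 0.05, 0 were higher, and 0 were called beside a median of −0.27. Akr1c21, a ketosteroid reductase, stood at 1006, 1096 and 1004 CPM in AngII and at 438, 747 and 427 CPM in CDH16KO-AngII (log2 fold change −0.95, edgeR adjusted p = 0.19). Cyp2a5, a P450 of coumarin and nicotine metabolism, stood at 207, 263 and 136 CPM against 88.5, 45.5 and 39.1 CPM (log2 fold change −1.81, edgeR adjusted p = 0.212). It shares 86.4% of its longest transcript with Cyp2a4, which averaged 392 CPM in AngII and 307 CPM in CDH16KO-AngII. The pair summed to 595 ± 55.2 CPM in AngII and 365 ± 79.0 CPM in CDH16KO-AngII (SD, n = 3 per group). Cyp2d9, a steroid hydroxylase, stood at 226, 206 and 123 CPM against 105, 72.9 and 88.5 CPM. The mean log2 CPM of the group was 6.62, 7.42 and 6.55 in the CDH16KO-AngII libraries and 7.45, 7.496 and 7.03 in AngII, so CDH16KO-AngII library 2 lay within the AngII range. Cyp2e1, chosen after its values were seen, shows this in 1 gene, at 416, 1294 and 498 CPM against 1342, 1269 and 996 CPM. The median of the drug group was −0.51 without that library and −0.12 without CDH16KO-AngII library 3, and that of the glutathione and NRF2 group −0.39 and −0.26.

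**Figure D3:**
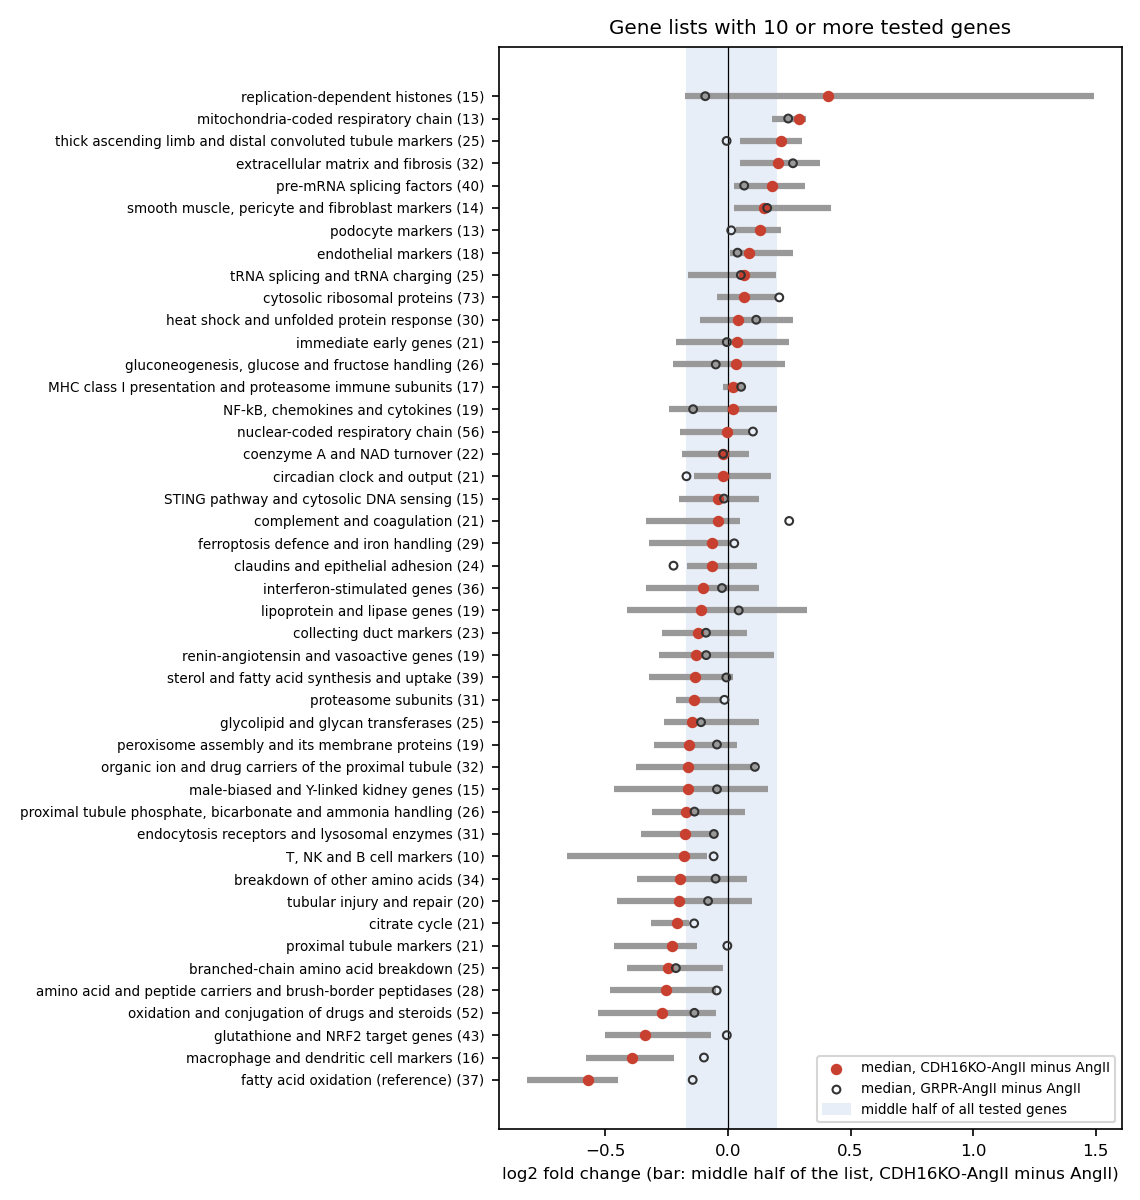
Median log2 fold change of CDH16KO-AngII over AngII for each gene group with at least 10 tested genes (filled circles, with a grey bar from the lower to the upper quartile of its genes), beside the medians of GRPR-AngII over AngII (open circles). The blue band spans the quartiles of all tested genes, and fatty acid oxidation, macrophage and glutathione genes have the lowest medians and histone genes the highest.

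Markers of the proximal tubule, the segment that expresses these enzymes, also had mostly negative values. Of 21 proximal tubule markers, 18 had negative values, 3 were lower and 2 higher at an unadjusted p under 0.05, and none was called (median −0.23, and −0.39 or −0.15 with CDH16KO-AngII library 2 or 3 left out). Their summed level was 46511 to 48714 CPM in AngII and 36458 to 46667 CPM in CDH16KO-AngII. Their mean log2 CPM was 9.79, 9.71 and 9.46 against 9.26, 9.76 and 9.08, with CDH16KO-AngII library 2 again within the AngII range. The defining markers did not separate together. Slc34a1, the phosphate cotransporter, stood at 6366, 5347 and 5387 CPM against 3706, 4551 and 3596 CPM (log2 fold change −0.53, edgeR adjusted p = 0.506). Lrp2, the endocytic receptor megalin, stood at 876, 846 and 602 CPM against 709, 914 and 495 CPM, with overlap (log2 fold change −0.13). The part of this segment's share of the RNA in the values of the enzyme groups was not tested.

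Carriers of the proximal tubule were lower and higher by turns. Of 28 amino acid carriers and brush-border peptidases, 21 had negative values, with 7 lower and 1 higher at an unadjusted p under 0.05 (median −0.25). Only 1 of the 28 had libraries entirely below AngII and 1 entirely above, and the median was −0.48 or −0.11 when CDH16KO-AngII library 2 or 3 was left out, and −0.15 when AngII library 1 was. Slc38a3, the basolateral glutamine carrier of acid-base defence, stood at 129, 127 and 159 CPM in AngII and at 88.1, 36.6 and 53.7 CPM in CDH16KO-AngII (log2 fold change −1.22, edgeR adjusted p = 0.319). Slc15a2, the peptide carrier of the late proximal tubule, was the exception at 59.5, 74.4 and 45.6 CPM against 103, 96.7 and 113 CPM (log2 fold change 0.80, edgeR adjusted p = 0.153). Of 32 organic ion and drug carriers, 19 had negative values, with 4 lower and 2 higher (median −0.16, but −0.27 or −0.05 with CDH16KO-AngII library 2 or 3 left out). Slc22a12, the urate exchanger, stood at 1437, 1547 and 1452 CPM against 898, 1305 and 877 CPM, and Slc47a1, the exporter of organic cations into urine, stood at 532, 579 and 601 CPM against 793, 757 and 791 CPM. Neither overlapped between groups and neither was called (edgeR adjusted p of 0.462 and 0.439). Slc5a2, the glucose cotransporter of the early proximal tubule, stood at 416, 475 and 490.1 CPM against 550.3, 702 and 542 CPM. Endocytosis receptors and lysosomal enzymes had 25 of 31 negative values and a median of −0.17, which was −0.32 or −0.06 with CDH16KO-AngII library 2 or 3 left out, and −0.11 with library 1 left out.

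**Figure D4:**
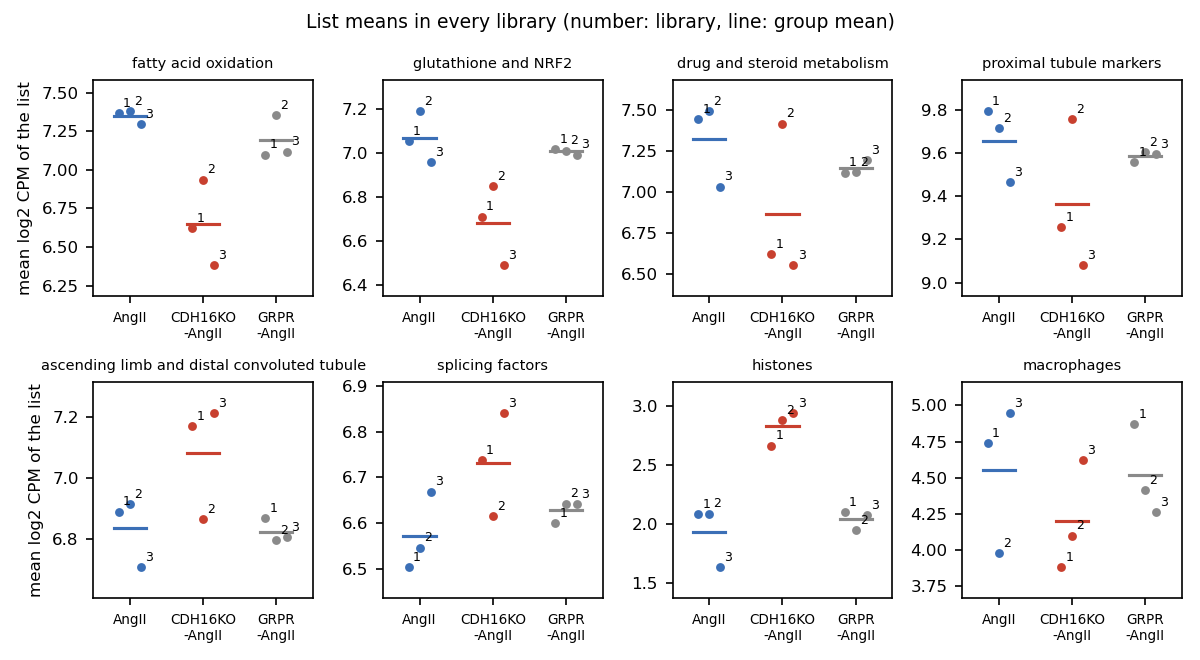
Mean log2 CPM of 8 gene groups in each of the 9 libraries, with 1 panel per gene group. The number at each point is the library number, and the lines mark the means of the sample groups. In the fatty acid oxidation and glutathione panels all CDH16KO-AngII libraries lie below AngII, in the histone panel all lie above, and in the drug metabolism, proximal tubule and ascending limb panels CDH16KO-AngII library 2 lies within the AngII range.

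Markers of the thick ascending limb and distal convoluted tubule, where Cdh16 is also expressed, leaned the other way. Of 25 tested, 20 had positive values, 5 were higher and 0 lower at an unadjusted p under 0.05, and 4 had libraries entirely above AngII (median 0.22). The median was 0.35 or 0.13 when CDH16KO-AngII library 2 or 3 was left out, and 0.14 when AngII library 3 was. Slc8a1, the sodium-calcium exchanger, stood at 42.3, 50.4 and 55.3 CPM against 65.6, 120.3 and 82.6 CPM (log2 fold change 0.86, edgeR adjusted p = 0.211). Trpm6, the magnesium channel, stood at 9.89, 6.81 and 10.3 CPM against 22.5, 14.8 and 14.2 CPM (log2 fold change 0.93, edgeR adjusted p = 0.215). Both, like Pvalb, are known from the distal convoluted tubule. The defining carriers did not separate. Slc12a1 of the ascending limb stood at 1145, 1157 and 899 CPM against 1321, 617 and 1817 CPM, and Slc12a3 of the distal convoluted tubule at 907, 765 and 782 CPM against 717, 976 and 843 CPM. Collecting duct markers had 16 of 23 negative values. Foxi1, the transcription factor of intercalated cells, stood at 54.8, 30.3 and 44.8 CPM against 19.0, 26.5 and 28.5 CPM, and Aqp2, the vasopressin-regulated water channel, ranged from 95.2 to 566 CPM within CDH16KO-AngII.

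Innate immune groups gave no call. Of 15 tested genes of the STING pathway and cytosolic DNA sensing, 9 had negative values, 1 was lower and 1 higher at an unadjusted p under 0.05 (median −0.04). For 3 of the 15 the CDH16KO-AngII libraries lay entirely above AngII and for 2 entirely below. The median was 0.03 without AngII library 1 and 0.06 without CDH16KO-AngII library 1. Irf3, the transcription factor downstream of STING, stood at 64.0, 70.1 and 81.4 CPM in AngII and at 85.7, 82.3 and 113 CPM in CDH16KO-AngII (log2 fold change 0.38, edgeR adjusted p = 0.588). Samhd1, a nucleotide hydrolase counted in the same group, stood at 30.5, 23.2 and 29.4 CPM against 18.4, 21.4 and 22.1 CPM (log2 fold change −0.43, edgeR adjusted p = 0.528). Of 36 interferon-stimulated genes, 22 had negative values and 2 were lower (median −0.10), and the median turned to 0.07 without AngII library 1 and to 0.04 without CDH16KO-AngII library 2. The interferon-stimulated genes of smallest p went both ways. Trim30a and Irgm2 had log2 fold changes of −0.73 and −0.96 (edgeR adjusted p of 0.427 and 0.491). Ifi27 and Ifi35 had log2 fold changes of 0.53 and 0.36 (edgeR adjusted p of 0.623 and 0.636). Genes of NF-kB signalling, chemokines and cytokines had 9 of 19 negative values (median 0.02, and −0.10 without AngII library 2). Macrophage and dendritic cell markers had 14 of 16 negative values, with 4 lower at an unadjusted p under 0.05 and 0 whose groups did not overlap. Their median of −0.39 became −0.62 or −0.18 when AngII library 2 or 3 was left out, and −0.23 or −0.63 when CDH16KO-AngII library 1 or 3 was. Their summed level ranged from 578 to 1108 CPM in AngII and from 555 to 958 CPM in CDH16KO-AngII. Laptm5, a lysosomal protein of blood cells, stood at 17.7, 9.57 and 16.4 CPM against 5.28, 10.5 and 7.597 CPM.

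Complement, coagulation and injury genes had mostly negative values and no call. Of 21 complement and coagulation genes, 14 had negative values (median −0.04). At an unadjusted p under 0.05, 4 were lower and 0 higher. Their mean log2 CPM was 4.90, 4.53 and 4.79 in AngII and 4.38, 4.51 and 4.52 in CDH16KO-AngII, so the groups were barely apart. Fga, the fibrinogen alpha chain that injured tubules can express, stood at 37.4, 32.2 and 22.4 CPM in AngII and at 16.4, 10.7 and 6.36 CPM in CDH16KO-AngII (log2 fold change −1.46, edgeR adjusted p = 0.301). Ccl28, a mucosal chemokine counted in the NF-kB and chemokine group, stood at 2.53, 6.53 and 3.44 CPM against 5.13, 28.1 and 16.6 CPM, with overlap (log2 fold change 1.99, edgeR adjusted p = 0.283). Of 20 injury and repair genes 13 had negative values (median −0.20), and without AngII library 3 the median was 0.08. At an unadjusted p under 0.05, 3 of them were lower and 0 higher. The mean log2 CPM of this group was 4.52, 4.44 and 4.84 in AngII and 4.41, 4.25 and 4.33 in CDH16KO-AngII. Of 29 genes of ferroptosis defence and iron handling, the process that ACSL4 is known to favour, 21 had negative values and 2 were lower at an unadjusted p under 0.05 (median −0.06, ranging from −0.21 to 0.00 over fits without 1 library).

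Matrix, podocyte and vessel markers had small positive medians that did not hold in every fit. Of 32 matrix and fibrosis genes 25 had positive values, with 2 higher and 2 lower at an unadjusted p under 0.05 and Col6a6 the one call (median 0.20). Without CDH16KO-AngII library 3 the median was −0.02, and those of stromal markers (0.15) and endothelial markers (0.09) became −0.05 and −0.07. In GRPR-AngII against AngII the medians of matrix, stromal and endothelial genes were 0.27, 0.16 and 0.04. The podocyte median of 0.13 became −0.03 without CDH16KO-AngII library 1. The defining markers Nphs1 of podocytes and Pecam1 of endothelium had log2 fold changes of 0.03 and −0.06.

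Histone genes had the highest median of the groups with 10 or more tested genes, and splicing factors a smaller positive one. Of 15 replication-dependent histone genes, 2 were called higher and 10 had positive values, with 6 higher and 2 lower at an unadjusted p under 0.05 (median 0.41). Their mean log2 CPM was 2.08, 2.09 and 1.63 in AngII, 2.66, 2.88 and 2.94 in CDH16KO-AngII and 2.10, 1.95 and 2.07 in GRPR-AngII, so the CDH16KO-AngII means lay above the others. This mean gives low-abundance copies the same weight as abundant ones. The summed level showed no such rise, at 309 to 376 CPM in AngII and 309 to 360.1 CPM in CDH16KO-AngII. The median was 0.17 without AngII library 1 and 0.25 without CDH16KO-AngII library 3. H2bc12 stood at 0.552, 0.677 and 1.25 CPM against 2.29, 6.60 and 4.0006 CPM (log2 fold change 2.38, edgeR adjusted p = 0.113), and H2bc8 at 24.4, 21.3 and 20.2 CPM against 14.1, 14.5 and 13.6 CPM (log2 fold change −0.64, edgeR adjusted p = 0.145). Of the H2B genes named so far, the low-abundance ones had positive values and H2bc4 and H2bc8 negative ones. This did not hold for every low-abundance copy. H2bc7 and Hist1h2bp averaged 0.833 and 0.135 CPM in AngII and 0.534 and 0.118 CPM in CDH16KO-AngII, with overlap. H2bc6 and H2bc11 averaged 4.41 and 0.374 CPM in AngII and 8.18 and 1.13 CPM in CDH16KO-AngII. Of 40 splicing factors, 31 had positive values and 8 were higher at an unadjusted p under 0.05, 0 were lower and 0 were called (median 0.18). Rbm6 stood at 41.3, 33.3 and 42.5 CPM against 54.8, 47.0 and 68.4 CPM, and Luc7l3, a component of the U1 particle, at 94.6, 98.9 and 102 CPM against 121, 111 and 134 CPM. Nuclear-coded respiratory chain genes were evenly divided, with 28 of 56 negative (median 0.00), while all 13 mitochondria-coded ones were positive without a call (median 0.29, but 0.08 without CDH16KO-AngII library 3 and 0.48 without library 2). In GRPR-AngII against AngII the medians were 0.10 for the nuclear-coded and 0.25 for the mitochondria-coded genes. In the citrate cycle 20 of 21 were negative (median −0.21, and −0.42 without CDH16KO-AngII library 2). Its median in GRPR-AngII against AngII was −0.14. Sdha, the flavoprotein of succinate dehydrogenase, stood at 469.7, 524 and 305 CPM against 166, 336 and 154 CPM, where CDH16KO-AngII library 2 overlapped AngII.

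The KEGG terms of the deposited annotation gave a second grouping, over 281 pathways of 15 to 300 tested genes, described by the same measures. The lowest medians were those of beta-alanine metabolism (−0.48, 21 of 23 genes negative), fatty acid degradation (−0.48, 39 of 40) and butanoate metabolism (−0.44, 18 of 21). Fatty acid elongation came next (−0.41, 21 of 24). Retinol metabolism had 25 of 32 negative values and a median of −0.38, as did the breakdown of valine, leucine and isoleucine with 37 of 44. Glutathione metabolism, which was not among the lowest, stood at −0.21, with 39 of 51 negative. These pathways share aldehyde dehydrogenases and acyl-CoA enzymes, so their medians are not separate measurements. The highest median was that of ECM-receptor interaction, at 0.17 with 32 of 45 positive. Next came the Fanconi anemia pathway (0.16, 23 of 30 positive), protein digestion and absorption (0.15, 29 of 47) and morphine addiction (0.15, 21 of 32). The spliceosome followed at 0.08 with 83 of 128 positive, and RNA degradation at 0.07 with 39 of 66. In GRPR-AngII against AngII, the median was −0.26 for beta-alanine metabolism and −0.17 for the breakdown of valine, leucine and isoleucine. It was −0.05 for glutathione metabolism and 0.14 for ECM-receptor interaction. The KEGG cytosolic DNA-sensing pathway had 25 of 36 positive values (median 0.04 in CDH16KO-AngII against AngII). At an unadjusted p under 0.05, 3 of its genes were higher and 0 lower.

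The differences were unevenly spread over the chromosomes. On chromosome 13, 81 of 459 tested genes had an unadjusted p under 0.05, or 17.6% against 8.45% of all genes, and 5 of the 21 called genes lie there. They include Hist1h2bq, H2bc13, 1810034E14Rik and Gm47469. Between 20 and 30 Mb, where the histone cluster lies, 14 of 40 genes passed that level, and between 60 and 70 Mb, around 1810034E14Rik, 12 of 42 did. Chromosome 18, which carries the Sting1 gene, had 44 of 307 such genes (14.3%) and 0 calls, the X chromosome 12 of 356 (3.37%) and the mitochondrial genome 7 of 36 (19.4%).

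Promoters of the called genes were searched for short motifs, since PPAR and HNF4 receptors that drive tubule lipid genes bind AGGTCA repeats and NRF2 binds TGACNNNGC. The window ran from 250 bases before to 50 after the start site in RefSeq (GRCm38.p6), on both strands, and 6 of the 8 lower and 5 of the 13 higher genes had an entry. AGGTCA occurred in 1 of the 6, 1810034E14Rik, and in 0 of the 5, against 18.1% of all 27025 promoters. The direct repeat of AGGTCA with 1 base between the copies occurred in 0 of either set and in 0.0481% of all promoters. TGACNNNGC occurred in Acox2 and Hddc3, against 13.99% of all promoters. Among the uncalled genes of smallest p, 21 of 30 had an entry, with AGGTCA in 4 (Acot3, Gjb1, Pdxk and Sugct) and TGACNNNGC in 5. A match in so short a motif is a description of letters, and sites outside the window were not searched.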

How the data were processed

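RNA-seq of kidney was analysed from 1 deposited table of 32593 genes. Per the labels' protocols, RNA was purified on Qiagen RNeasy columns and libraries were built with a SMARTER kit. Per the submitters' processing notes the builds are GRCm38 and mm10. The aligner, the counter, their settings and the use of strand are unknown, since the sources used here do not give them. The deposited FPKM values were used for the filter and for the limma alternatives. The deposited counts are whole numbers with an excess of the value 4 (799 genes in AngII library 1, against 631 at 3 and 318 at 5), and were treated as estimated counts that the authors had rounded before deposit.

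Genes that reached an FPKM of 1 in 3 libraries were fitted with edgeR 4.0.16 (R 4.3.3), using TMM scaling, the quasi-likelihood test, all 9 libraries in 1 fit so that they share an estimate of spread, and no block. Benjamini-Hochberg adjustment ran over all 12507 genes. The design had named limma for FPKM and edgeR for counts, and the table held both. CPM are TMM-scaled. A count of 0 allows up to 3 counts, or 0.0496 to 0.0737 CPM. Libraries of a group differed by more than sampling noise (chi-square per gene of 74.2 to 366), so all were kept as separate replicates. No label says that libraries are separate animals, so p-values measure only the spread of these libraries, which may be technical.

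The report names Sting1, Cdh16, Acsl4, called genes, up to 15 uncalled genes per direction with the smallest p (mean FPKM of at least 2, groups apart, a standard symbol, outside fatty acid oxidation) and up to 4 genes of smallest p per list, of 53 lists. Partners that share sequence or overlap, defining cell markers and genes said to be chosen later are named beside these. Members and lists were chosen with earlier results of these data known. Some genes named by this rule are not reported here. Sequence was called shared at 95% identity over 50% of the longest GENCODE M21 transcript (BLAST+ 2.17.0). The model fit was also run on counts simulated from its own estimates of level and spread. That run cannot show how the fit behaves on the deposited counts. Alternatives were other filters, scalings and pseudocounts, DESeq2 1.42.0, limma 3.58.1, 6 libraries only, a replicate block, leaving out each library, and counts divided by 4, the last chosen after seeing the data. Figures were drawn with matplotlib 3.10.9.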

Additional observations from a re-analysis of the deposited data

How the results depend on the processing

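The number of calls depended on the tool and on single libraries. DESeq2 called 103 genes higher and 107 lower, among them all 21 edgeR calls. An FPKM filter of at least 5 left 2 higher and 1 lower calls and 600 genes at an unadjusted p under 0.05, and no filter gave 1857 such genes of 32593. Leaving out 1 library at a time gave 0 to 27 higher and 0 to 20 lower calls, and 605 to 2476 genes at an unadjusted p under 0.05. Without AngII library 1 edgeR called 0 genes in each direction, with 605 at an unadjusted p under 0.05. Without AngII library 2, or without CDH16KO-AngII library 3, it called 2 higher and 1 lower. Without CDH16KO-AngII library 2 it called 15 higher and 20 lower. The log2 fold change of Sting1 ranged from −1.20 to −0.58 over such fits. The other settings (6 libraries, other scalings, limma, no mitochondria-coded genes, counts divided by 4) gave 11 to 15 higher and 8 to 10 lower calls, but not always of the same genes. The fit of 6 libraries kept 14 of the 21 calls, 10 higher and 4 lower, and limma kept 17 at either pseudocount. Fitting the replicate number as a block gave 13 higher and 13 lower calls, with 17 of the 21 calls retained, and 1642 genes at an unadjusted p under 0.05. The labels do not say that the numbers pair libraries. Same-numbered libraries of both groups had correlations of −0.06, 0.22 and 0.24 in their deviations from the group means, so the numbers were not taken as pairs, and not every library correlated best with its own number. No gene named changed direction with a call. The median of all genes stayed between −0.03 and 0.03.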
